A study of Homo sapiens with 4 samples.

Results

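COL13A1, a collagen that sits in the cell membrane, had the largest line difference of a set of collagen genes that also holds COL17A1, COL4A1, COL4A2, COL5A1, COL6A1, COL6A2, COL7A1, COL12A1 and COL18A1. The 10 genes were chosen by name with earlier results of these data known, so their differences between the lines describe the arrays and were not tested. For 9 of the 10 genes the deposited table held rows whose platform annotation gave that symbol alone, with 31 such probe sets among them, out of 18239 genes with a probe set in all. COL17A1 had no such row and is not analysed here. All 9 genes lay above the dim level, a mean log2 value of 4.14 below which genes were left out, in each line taken alone.

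The study compared MTAC-P with PC9. MTAC-P is a human lung cancer line that the labels call resistant and say was raised under mild exposure to a TKI, a tyrosine kinase inhibitor. Neither the inhibitor, its dose, the parent line, clonality nor the presence of drug at harvest is given in the labels. PC9 is an established cell line from a human lung adenocarcinoma whose EGFR gene carries an activating mutation, and the labels record no treatment for it. Both lines were grown in DMEM with serum. There were 4 arrays of total RNA, 2 for each line, and the labels do not say whether the duplicates came from separate cultures, so their spread may be technical. Fewer cells making a transcript and less of it per cell cannot be told apart in such bulk RNA. Values are log2 expression values of 1 probe set per gene, the one with the highest mean over the 4 arrays. Levels of different genes come from different probes and were not compared with each other.

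Collagens are secreted or membrane proteins built of 3 chains wound into a triple helix. Fibrillar collagens form the fibres of connective tissue, type IV chains form the network of basement membranes, type VI forms beaded filaments, and type VII anchors epithelia to the tissue below. Epithelial cells of the lung normally make basement membrane chains, while fibroblasts supply most of the fibrillar ones. Each chain is modified and folded in the endoplasmic reticulum, exported in large carriers, and trimmed or crosslinked outside the cell.

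The arrays had medians from 4.85 to 4.88 over all probe sets, and no call of detection comes with the values. Background probe sets of low GC content (3 to 19) averaged 3.84 and 3.87 on the MTAC-P arrays and 3.81 and 3.83 on the PC9 arrays. Those of high GC content (20 to 25) averaged 5.18 and 5.32 in MTAC-P and 5.06 and 4.93 in PC9. Epithelial markers were bright in both lines, with list medians of 12.58 and 12.40 in MTAC-P and 12.62 and 12.50 in PC9. Of these 8 markers, 3 were higher and 5 lower in MTAC-P. KRT8 was highest at 0.36 (limma adjusted p = 0.304) and CDH1 lowest at -0.54 (limma adjusted p = 0.16). Of 10 fibroblast markers, 1 had a mean above 6, the matrix protein gene FBLN1, at 8.95 and 9.20 in MTAC-P and 8.42 and 8.33 in PC9. The fibroblast list had medians of 4.14 and 4.11 in MTAC-P and 4.06 and 4.32 in PC9. The highest value of DCN and LUM, both on that list, was 4.33 on any array. PDGFRB, with the lowest difference of the list at -0.45 (limma adjusted p = 0.306), read 4.43 and 4.64 in MTAC-P and 4.75 and 5.22 in PC9. The endothelial list had no gene and the blood list 1 gene, CD68, with a mean above 6. FBLN1 differed by 0.70 (SE 0.17, limma adjusted p = 0.129), and its part in the collagen values was not tested. Its 8 probe sets differed by -0.13 to 0.70, and their mean by 0.35. The 3' probe set of ACTB exceeded the 5' one, a sign of RNA quality, by 1.51 and 1.75 in MTAC-P and by 1.71 and 2.49 in PC9.

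Type XIII collagen is a membrane-spanning collagen found at sites where cells adhere to the matrix, and it is best known for its role at the neuromuscular junction. COL13A1 had values of 6.31 and 7.70 on the MTAC-P arrays, against 4.74 and 4.52 on the PC9 arrays. Both MTAC-P values lay above both PC9 values, and the PC9 values lay between the averages of the low and high GC background probe sets. The mean was 7.00 ± 0.98 in MTAC-P and 4.63 ± 0.16 in PC9 (SD, n = 2 per line). That is a log2 difference of 2.37 (SE 0.42) or 5.18-fold, and a fold against so dim a level may understate the difference. It was the third largest difference upward among the 14970 tested genes, of which 60, or 0.401%, were at least 2-fold higher in MTAC-P. The MTAC-P duplicates themselves differed by 1.39, with replicate 2 the higher. Without MTAC-P replicate 1 the difference was 3.07, and without MTAC-P replicate 2 it was 1.68.

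COL13A1 had 3 other probe sets. One of them read 5.91 and 7.25 in MTAC-P and 4.57 and 4.48 in PC9, a difference of 2.06. Another read 5.90 and 7.15 in MTAC-P and 4.74 and 4.71 in PC9, a difference of 1.80. These followed the brightest probe set on all 4 arrays. The remaining one read 5.64 and 5.50 in MTAC-P and 4.93 and 5.90 in PC9, so the lines overlapped there and the difference was 0.15. Which transcripts each probe set detects is not given in the sources used here. The mean of the 4 probe sets differed by 1.60.

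COL13A1 lies on chromosome 10 (GRCh38.p14, 69801906 to 69959144). The stretch before its start is shown because this gene separates the lines most. It was taken from RefSeq's promoter table at chr10:69801656-69801955 on the plus strand, from 250 bases before the start to 50 after it, and capitals mark matches to the motifs searched.

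COL13A1: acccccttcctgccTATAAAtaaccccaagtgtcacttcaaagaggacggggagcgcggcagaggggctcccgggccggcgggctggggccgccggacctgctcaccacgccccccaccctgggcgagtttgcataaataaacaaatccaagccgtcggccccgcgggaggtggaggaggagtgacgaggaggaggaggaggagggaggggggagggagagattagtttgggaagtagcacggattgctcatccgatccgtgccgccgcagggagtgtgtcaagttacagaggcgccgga

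The motifs, searched on both strands, were the TATA box TATAAA, the CCAAT box CCAAT, the GC box GGGCGG, the AP-1 site TGANTCA, the TEAD site GGAATG and the E-box CACCTG bound by ZEB and SNAIL factors. None of these overlapped another in the windows shown. The COL13A1 window held 1 match, a TATAAA near its upstream end, and 11.5% of the 35116 promoter windows in the table hold that motif. G and C made up 64.0% of the window, against a median of 58.7% over all windows. The letters of the other 5 motifs were not in this window. Of all windows, 34.6% hold the CCAAT box, 45.0% the GC box, 7.71% the AP-1 site, 14.0% the TEAD site and 20.6% the E-box. Within 500 kb of COL13A1 there were 13 other tested genes, 8 higher and 5 lower in MTAC-P, with a median of 0.09. The largest of their differences upward was 0.74, for TYSND1.

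By the distance of log2 values centred on each gene's mean over the 4 arrays, the gene most like COL13A1 was DENND2A. DENND2A read 7.88 and 8.88 in MTAC-P and 6.58 and 6.63 in PC9, at a distance of 0.69, but its other probe set differed the opposite way, by -0.21. FAM171A1, at a distance of 0.74, read 7.25 and 7.67 in MTAC-P and 4.86 and 4.81 in PC9. HSD3B1, a steroid dehydrogenase gene, followed at 0.96, XBP1, a transcription factor gene of the unfolded protein response, at 1.01 and CYB5R2 at 1.08. All 5 had both MTAC-P arrays above both PC9 arrays and replicate 2 above replicate 1 in MTAC-P, a shape that the measure selects for.

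**Figure D1:**
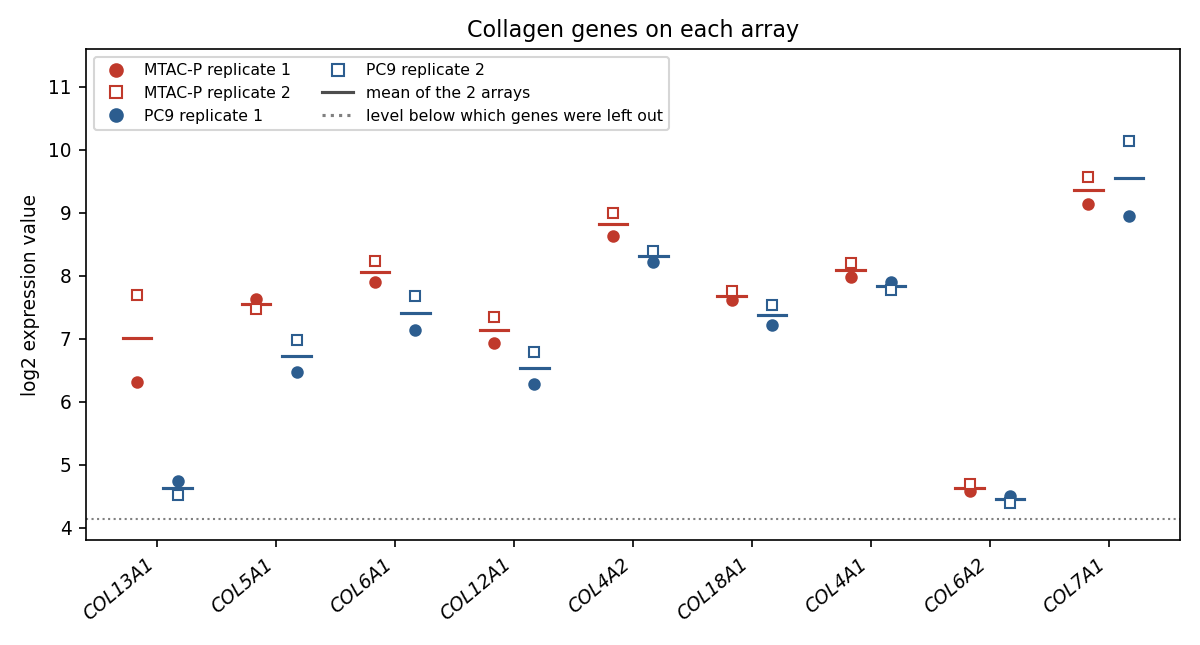
Log2 expression values (vertical axis) of the 9 collagen genes on each array, with MTAC-P (red) left of PC9 (blue), filled circles for replicate 1, open squares for replicate 2 and a bar at each line's mean. COL13A1 separates the lines most, with 6.31 and 7.70 in MTAC-P against 4.74 and 4.52 in PC9, and COL7A1 is the gene whose arrays overlap. Levels compare within a gene only.

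Among the 9 genes, 8 had a higher mean in MTAC-P and 1 a lower mean, where 53.8% of all tested genes were higher and 46.2% lower. For those 8 both MTAC-P arrays lay above both PC9 arrays. Over all tested genes, 53.2% had non-overlapping arrays, 28.3% with MTAC-P higher. The median difference was 0.51 over the 9 genes and 0.03 over all tested genes. Of the 9, 1 was at least 2-fold apart, COL13A1, where 2.02% of all tested genes were. Over all tested genes, 0.0200% passed limma's adjusted p threshold of 0.05, and 18.9% had an unadjusted p under 0.05. No p-value of the 9 is used, because they were picked with the values known. Their counts describe such a set, and nothing is read from them.

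Type V collagen nucleates and thins fibrils, and COL5A1 encodes its alpha 1 chain. COL5A1 read 7.64 and 7.48 in MTAC-P, against 6.47 and 6.97 in PC9. Its lowest MTAC-P value was above its highest PC9 value. The mean was 7.56 ± 0.11 in MTAC-P and 6.72 ± 0.36 in PC9 (SD, n = 2 per line), a log2 difference of 0.84 (SE 0.21) or 1.78-fold. Of its other probe sets above the dim level, one differed by 0.34 and one by -0.29, and their arrays overlapped between the lines. With the mean of all 4 probe sets COL5A1 differed by 0.26. The partner chain gene of the same fibrils, COL5A2, read 4.56 and 4.55 in MTAC-P and 4.54 and 4.47 in PC9, close to the dim level (difference 0.05, limma adjusted p = 0.885). COL1A1, a chain of the main connective tissue collagen, read 4.13 and 4.44 in MTAC-P and 4.34 and 4.18 in PC9. COL3A1, another fibroblast collagen gene, was below the dim level in both lines.

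Type VI collagen is assembled from the alpha 1, alpha 2 and alpha 3 chains. COL6A1 read 7.90 and 8.23 in MTAC-P, against 7.14 and 7.68 in PC9. The difference was 0.65 (SE 0.23) with non-overlapping arrays, and it was 0.38 without PC9 replicate 1. Its 5 other probe sets were dimmer and differed by -0.03 to 0.27. COL6A2 read 4.58 and 4.69 in MTAC-P, against 4.50 and 4.40 in PC9. Its arrays did not overlap, but the difference was 0.18 (SE 0.16) at a level near background. The 3 other COL6A2 probe sets differed by -0.42 to -0.05, and the mean of all 4 by -0.15, so its direction turned with the probe set. COL6A3 read 4.21 and 4.65 in MTAC-P and 3.68 and 4.22 in PC9 (difference 0.48, limma adjusted p = 0.340), with overlapping arrays. It was 0.21 without PC9 replicate 1, and the mean of the COL6A3 probe sets differed by 0.23. The PC9 mean of COL6A3 was below the dim level, so the gene was kept only through its MTAC-P values. COL6A1 and COL6A2 lie on chromosome 21 with starts 116.3 kb apart, and COL18A1 lies within 500 kb of COL6A1.

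Type XII collagen coats fibrils and has been linked to tissue under tension. COL12A1 read 6.93 and 7.35 in MTAC-P, against 6.27 and 6.78 in PC9. The arrays did not overlap, though MTAC-P replicate 1 and PC9 replicate 2 were close, and the difference was 0.61 (SE 0.24) or 1.53-fold. A second probe set differed by 0.44 and the other above the dim level by -0.13. Without PC9 replicate 1 the difference was 0.36. Type XVIII collagen is a basement membrane proteoglycan whose end fragment is endostatin. COL18A1 read 7.61 and 7.75 in MTAC-P, against 7.21 and 7.53 in PC9. Its difference was 0.31 (SE 0.18), and its other probe set, with overlapping arrays, differed by 0.02. Without PC9 replicate 1 the COL18A1 difference was 0.15.

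Type VII collagen forms the anchoring fibrils under stratified epithelia. COL7A1 read 9.14 and 9.57 in MTAC-P, against 8.95 and 10.14 in PC9. Both MTAC-P values lay between the PC9 values, so the lines could not be separated. Its difference was -0.19 (SE 0.38), with a single probe set, and it was 0.40 without PC9 replicate 2 and 0.03 without MTAC-P replicate 1.

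**Figure D2:**
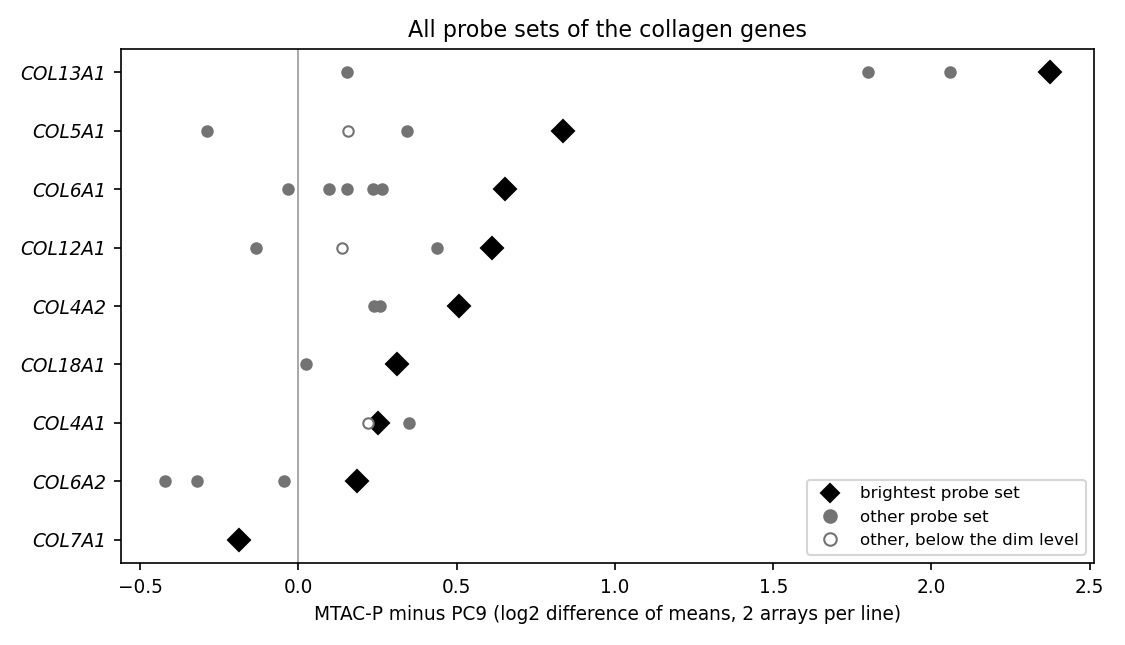
Log2 difference of MTAC-P minus PC9 (horizontal axis, means of 2 arrays per line) for each of the 31 probe sets of the 9 collagen genes. Diamonds are the brightest probe set of each gene, grey circles the others and open circles those below the dim level. In COL13A1, 3 of 4 probe sets lie between 1.80 and 2.37, while COL5A1, COL6A1, COL6A2 and COL12A1 have probe sets on both sides of 0.

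Across the 28 probe sets above the dim level, 21 were higher and 7 lower in MTAC-P. They are several probe sets of the same chosen genes and not separate observations. No share over all probe sets was worked out, so nothing is read from this count. In 7 of the 8 genes with several probe sets the brightest one had the most positive difference, COL4A1 being the exception, and in COL6A2 dimmer ones lay farther from 0 on the other side. All probe sets of COL13A1, COL4A1, COL4A2 and COL18A1 were higher in MTAC-P, and 4 genes had bright probe sets of both signs.

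The type IV genes lie in head-to-head pairs that are transcribed away from each other. COL4A1 pairs with COL4A2 on chromosome 13 and COL4A5 with COL4A6 on chromosome X. The remaining pair, COL4A3 with COL4A4 on chromosome 2, was below the dim level in both genes and was not tested. The alpha 1 and alpha 2 chains make the network of nearly all basement membranes, and the alpha 5 and alpha 6 chains join in a second, more restricted one. The means of the pair on chromosome 13 were higher in MTAC-P and those of the pair on chromosome X were lower. COL4A1 read 7.97 and 8.20 in MTAC-P, against 7.89 and 7.77 in PC9. Its arrays did not overlap, and the difference was 0.25 (SE 0.17), or 0.14 without MTAC-P replicate 2. COL4A2 read 8.63 and 9.00 in MTAC-P, against 8.22 and 8.40 in PC9. The COL4A2 difference was 0.51 (SE 0.19) or 1.42-fold. It was 0.33 without MTAC-P replicate 2. The other COL4A2 probe sets differed by 0.24 and 0.26, with overlapping arrays in each.

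COL4A5, which like COL4A6 is not among the 10 genes, read 6.25 and 6.61 in MTAC-P, against 6.80 and 7.84 in PC9. COL4A6 read 7.36 and 7.75 in MTAC-P, against 8.20 and 8.64 in PC9. In both genes each MTAC-P array lay below each PC9 array. The difference was -0.89 for COL4A5 (SE 0.34, limma adjusted p = 0.241) and -0.87 for COL4A6 (SE 0.22, limma adjusted p = 0.137), so neither passed the test. Leaving out PC9 replicate 2 moved COL4A5 to -0.37, and the mean of the 7 COL4A6 probe sets differed by -0.34, with 1 of the 7 higher in MTAC-P. That the pairs on chromosomes 13 and X differ from each other was not tested.

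**Figure D3:**
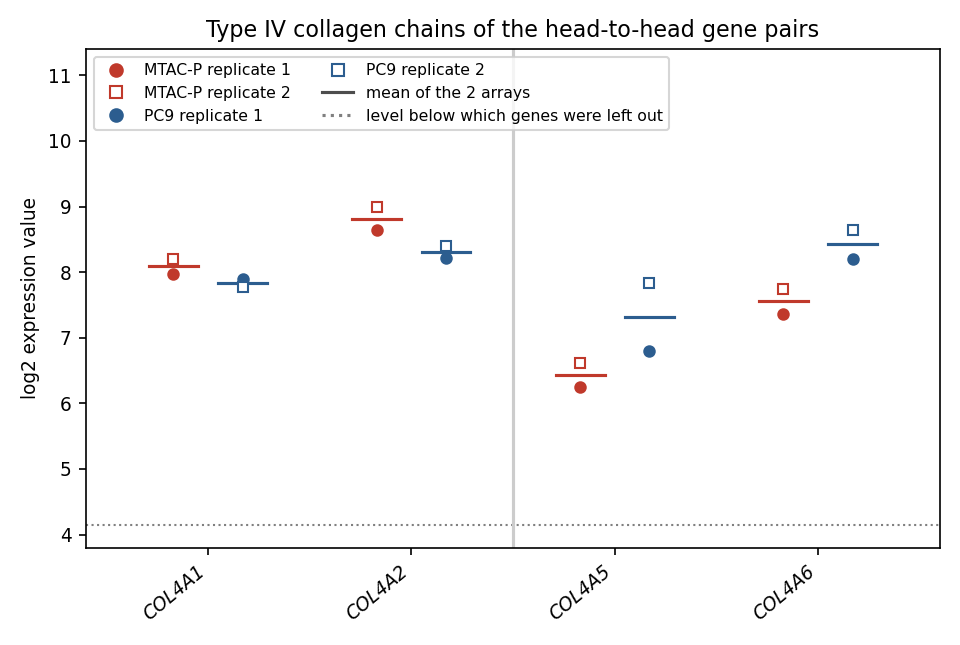
Log2 expression values (vertical axis) of the type IV chain genes of the tested head-to-head pairs on each array. MTAC-P (red) is left of PC9 (blue), with circles for replicate 1, open squares for replicate 2 and bars at the means. MTAC-P lies above PC9 for COL4A1 and COL4A2 and below it for COL4A5 and COL4A6. Levels compare within a gene only.

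The starts of COL4A1 (110307157) and COL4A2 (110307284) are 127 bases apart, and those of COL4A6 (108439458) and COL4A5 (108439838) are 380 apart. The shared stretches are shown because the genes of each pair differed between the lines in the same direction. For the first pair the COL4A2 window is given, at chr13:110307034-110307333 on the plus strand. It contains the COL4A1 start as well, and the window of COL4A1 shares 226 bases with it. For the other pair both windows are given, COL4A5 at chrX:108439588-108439887 on the plus strand and COL4A6 at chrX:108439409-108439708 on the minus strand, with 121 bases in common. Capitals mark matches to the motifs listed above.

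COL4A2: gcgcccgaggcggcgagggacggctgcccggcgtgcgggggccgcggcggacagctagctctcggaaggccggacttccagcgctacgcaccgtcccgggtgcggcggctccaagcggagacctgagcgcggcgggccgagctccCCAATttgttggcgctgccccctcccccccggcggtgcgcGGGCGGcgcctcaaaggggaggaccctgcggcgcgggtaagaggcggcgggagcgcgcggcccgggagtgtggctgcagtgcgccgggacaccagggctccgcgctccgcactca

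COL4A5: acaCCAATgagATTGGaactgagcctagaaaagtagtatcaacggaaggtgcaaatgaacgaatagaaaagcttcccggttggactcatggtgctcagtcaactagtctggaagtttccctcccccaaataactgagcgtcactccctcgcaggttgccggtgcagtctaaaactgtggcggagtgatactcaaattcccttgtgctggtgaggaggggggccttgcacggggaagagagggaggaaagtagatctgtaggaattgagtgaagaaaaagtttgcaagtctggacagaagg

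COL4A6: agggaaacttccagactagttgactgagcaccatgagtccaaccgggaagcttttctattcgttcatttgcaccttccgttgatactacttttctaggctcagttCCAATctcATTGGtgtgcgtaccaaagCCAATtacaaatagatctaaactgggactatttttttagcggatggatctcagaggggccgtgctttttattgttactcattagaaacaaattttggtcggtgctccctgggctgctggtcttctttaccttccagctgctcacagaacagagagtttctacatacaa

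Between the starts of COL4A1 and COL4A2 lie a CCAAT and a GGGCGG, and G and C make up 77.7% of the window. The COL4A5 window held 2 CCAAT matches on opposite strands, and the same bases form 2 of the 3 matches in the COL4A6 window. All 3 lie between the starts of that pair, whose windows have 49.3% G and C for COL4A5 and 43.7% for COL4A6. These matches are descriptions of the letters, and binding was not measured.

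The 34 other collagen chains listed by class all had a probe set, and 21 were above the dim level. Of those 21, 12 were higher and 9 lower in MTAC-P, with a median of 0.02. Only 6 of them had a mean above the 50th percentile of probe-set means, a log2 value of 4.86. Of these 6, 1 was higher in MTAC-P, COL16A1, and the remaining chains of the 21 lay closer to the dim level. None was called by limma after adjustment, and COL4A5 and COL4A6 were the 2 of 21 with an unadjusted p under 0.05, where 18.9% of all tested genes had one. Among membrane-spanning collagens, COL25A1 read 4.43 and 4.48 in MTAC-P and 4.56 and 4.29 in PC9, with overlapping arrays, and COL23A1 was below the dim level and not tested. COL8A1, a short-chain network collagen gene, read 7.88 and 9.15 in MTAC-P and 8.08 and 10.25 in PC9. The duplicates of COL8A1 differed by 1.27 in MTAC-P and 2.17 in PC9, more than the lines did (difference -0.65, limma adjusted p = 0.655), and its direction turned without PC9 replicate 2. COL9A3 was bright at 7.26 and 6.85 in MTAC-P and 7.13 and 7.09 in PC9, with overlapping arrays. COL15A1, the closest relative of COL18A1, differed by -0.10 (limma adjusted p = 0.858), and its direction turned when 1 array was left out. COL9A2, a chain of cartilage fibrils, was the lowest fibril-associated gene at -0.31 (limma adjusted p = 0.444), or -0.08 without PC9 replicate 2.

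**Figure D4:**
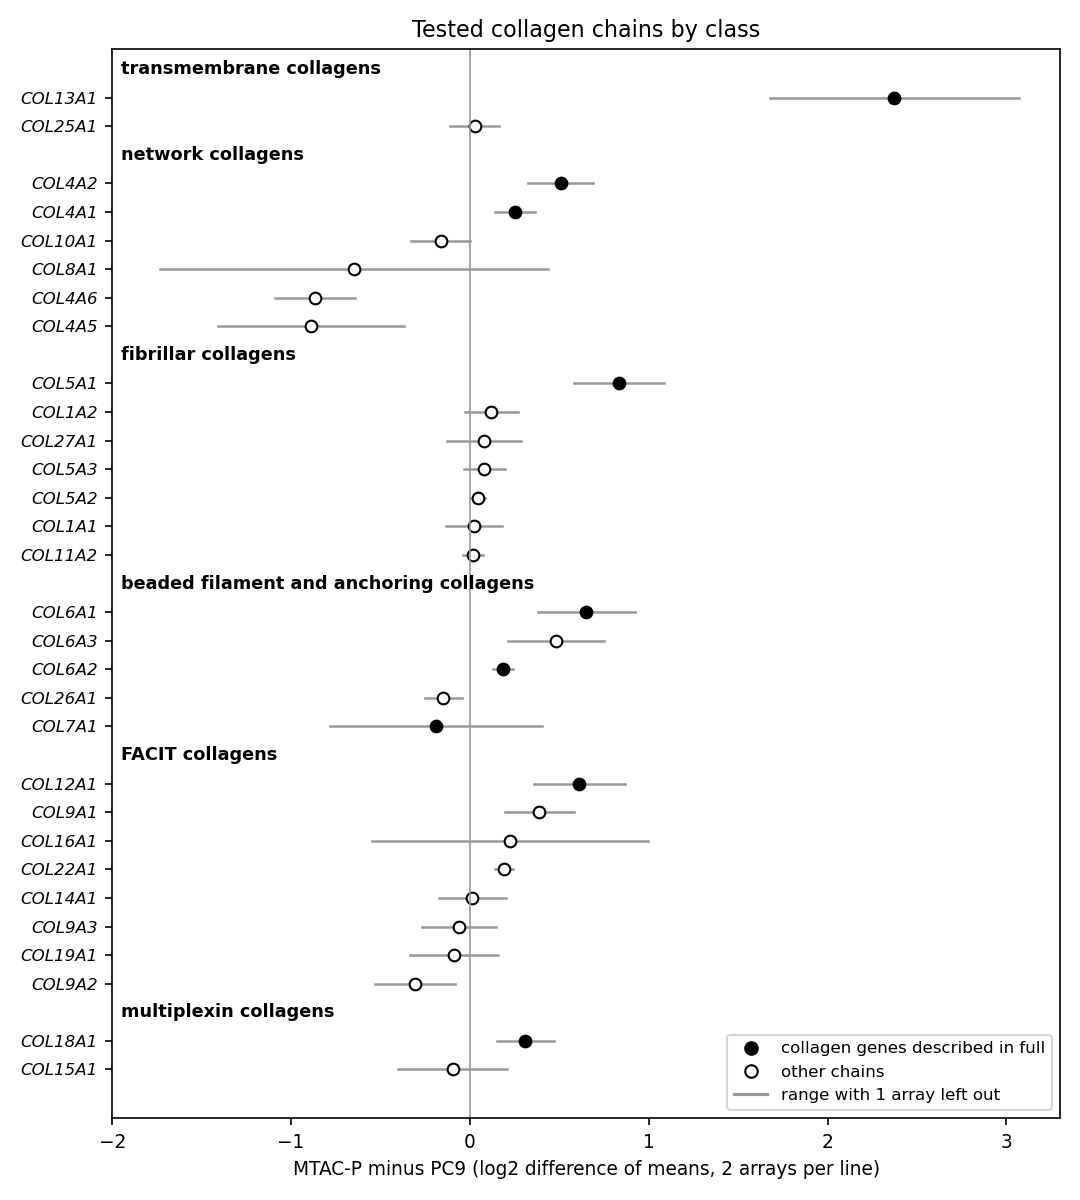
Log2 difference of MTAC-P minus PC9 (horizontal axis, means of 2 arrays per line) for the 30 tested collagen chains, grouped by structural class. Filled points are the genes chosen by name and open points the other chains, and grey lines run over the values obtained with 1 array left out. COL13A1 stands at 2.37, and COL4A5 and COL4A6 lie lowest at -0.89 and -0.87.

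Genes that make, export, trim, bind or cut collagens were described in 7 lists holding 86 genes, 78 of them tested. None of the 78 passed limma's adjusted p threshold in either direction, 10 had an unadjusted p under 0.05, 4 higher and 6 lower, where 18.9% of all tested genes did. Their median was 0.04, against 0.03 over all tested genes. In the list of modification and folding, 11 of 17 had a higher mean in MTAC-P, and the list median was 0.15. PLOD3, a lysyl hydroxylase gene, read 9.69 and 9.86 in MTAC-P and 9.30 and 9.43 in PC9 (difference 0.41, limma adjusted p = 0.247). PLOD2, which encodes the lysyl hydroxylase of collagen telopeptides, read 9.97 and 10.03 in MTAC-P and 10.53 and 10.50 in PC9. The PLOD2 difference was -0.51 (limma adjusted p = 0.163), and its 4 probe sets were all lower, by -0.54 to -0.26. P4HA1, a catalytic subunit of collagen prolyl hydroxylase, differed by -0.39 (limma adjusted p = 0.266) and P4HA2, another such subunit, by -0.05 with a direction that turned without PC9 replicate 2 or MTAC-P replicate 1. SERPINH1, which encodes the collagen chaperone HSP47, read 10.41 and 10.81 in MTAC-P and 10.36 and 10.31 in PC9 (difference 0.27, limma adjusted p = 0.461), or 0.07 with MTAC-P replicate 2 left out.

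In the export list 8 of 11 genes were lower, with a median of -0.21, and PREB, a factor for COPII coat assembly, was highest at 0.31 (limma adjusted p = 0.414). CREB3L2, a transcription factor gene of the secretory pathway, was lowest at -0.57 (limma adjusted p = 0.327), and it was -0.17 without MTAC-P replicate 1. The mean of the 7 CREB3L2 probe sets differed by -0.0026. PREB was 0.11 without MTAC-P replicate 2. Of the 13 tested genes of processing and crosslinking 9 were higher, with a median of 0.23. PXDN encodes peroxidasin, which crosslinks the type IV network. PXDN read 10.18 and 10.37 in MTAC-P and 9.75 and 9.85 in PC9 (difference 0.47, limma adjusted p = 0.205). The crosslinking oxidase gene LOXL2 differed by 0.41 (limma adjusted p = 0.462), LOX by 0.34 (limma adjusted p = 0.368) and the procollagen proteinase gene BMP1 by 0.29 (limma adjusted p = 0.409). Without MTAC-P replicate 2, LOXL2 was 0.05 and BMP1 was 0.13, and LOX was 0.14 without MTAC-P replicate 1. TLL2, a relative of BMP1, was the lowest of the list at -0.29 (limma adjusted p = 0.368), close to the dim level.

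Of 10 tested collagen receptors 4 were higher in MTAC-P, and their median was -0.02. MRC2, an endocytic collagen receptor, was highest at 0.26 (limma adjusted p = 0.472), or 0.07 without MTAC-P replicate 1. ITGA2, the alpha 2 chain of a collagen-binding integrin, was lowest at -0.35 (limma adjusted p = 0.289), and its beta chain ITGB1 differed by -0.24 (limma adjusted p = 0.454), or -0.13 without PC9 replicate 2. The receptor kinase gene DDR1 was bright at 11.55 and 11.90 in MTAC-P and 11.62 and 11.85 in PC9, a difference of -0.01 with overlapping arrays. Among basement membrane partners 7 of 10 were higher, with a median of 0.05. LAMB2, a laminin chain gene, was lowest at -0.58 (limma adjusted p = 0.199), or -0.38 without PC9 replicate 2. Fibronectin, FN1, read 11.58 and 12.07 in MTAC-P and 10.60 and 11.97 in PC9, and its difference of 0.54 (limma adjusted p = 0.537) was -0.15 without PC9 replicate 1. All 8 FN1 probe sets had a higher mean in MTAC-P, by 0.54 to 0.96, but the arrays of the brightest overlapped.

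Hemidesmosomes, the anchors to which type XVII and type VII collagens connect, were represented by 6 of 8 listed genes, 3 of them lower, with a median of -0.09. LAMB3, a laminin chain gene, was highest at 0.26 (limma adjusted p = 0.726), and its direction turned without PC9 replicate 1. DST, the cytolinker gene dystonin, read 5.87 and 4.70 in MTAC-P and 7.03 and 6.25 in PC9. The DST difference of -1.36 (limma adjusted p = 0.175) was the farthest from 0 in the 7 lists. It was -0.78 without MTAC-P replicate 2, and the mean of its 8 probe sets differed by -0.42. ITGA6 differed by -0.44 (limma adjusted p = 0.329) and its partner ITGB4 by -0.26 (limma adjusted p = 0.454), the mean of whose 8 probe sets was 0.16, while PLEC, at 0.08, turned when 1 array was left out. Without MTAC-P replicate 2, ITGA6 was -0.21 and ITGB4 was -0.10.

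Of the 11 tested collagenases and sheddases, 6 had a lower mean in MTAC-P, and the list median was -0.10. MMP1, interstitial collagenase, read 7.01 and 6.93 in MTAC-P and 5.77 and 6.41 in PC9 (difference 0.88, limma adjusted p = 0.141). Its difference was 0.57 without PC9 replicate 1. The other MMP1 probe set differed by 0.24, and the mean of both by 0.56. MMP13 had duplicates 1.49 apart in MTAC-P and 2.61 apart in PC9, and its difference of -0.75 (limma adjusted p = 0.664) turned without PC9 replicate 2. FURIN, a protease that releases the outer part of type XIII collagen, differed by 0.19 (limma adjusted p = 0.662) and was near 0 without PC9 replicate 1. ADAM9, ADAM10 and ADAM17 encode membrane proteases known to shed type XVII collagen. ADAM10 differed by -0.67 (limma adjusted p = 0.234), and by -0.32 without MTAC-P replicate 2, and ADAM9 by -0.49 (limma adjusted p = 0.203). ADAM17 differed by -0.29 (limma adjusted p = 0.364), but 3 of its 4 probe sets were higher and their mean differed by -0.0021. The membrane collagenase gene MMP14 was at 5.13 and 5.22 in MTAC-P and 4.88 and 5.26 in PC9, with overlapping arrays.

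**Figure D5:**
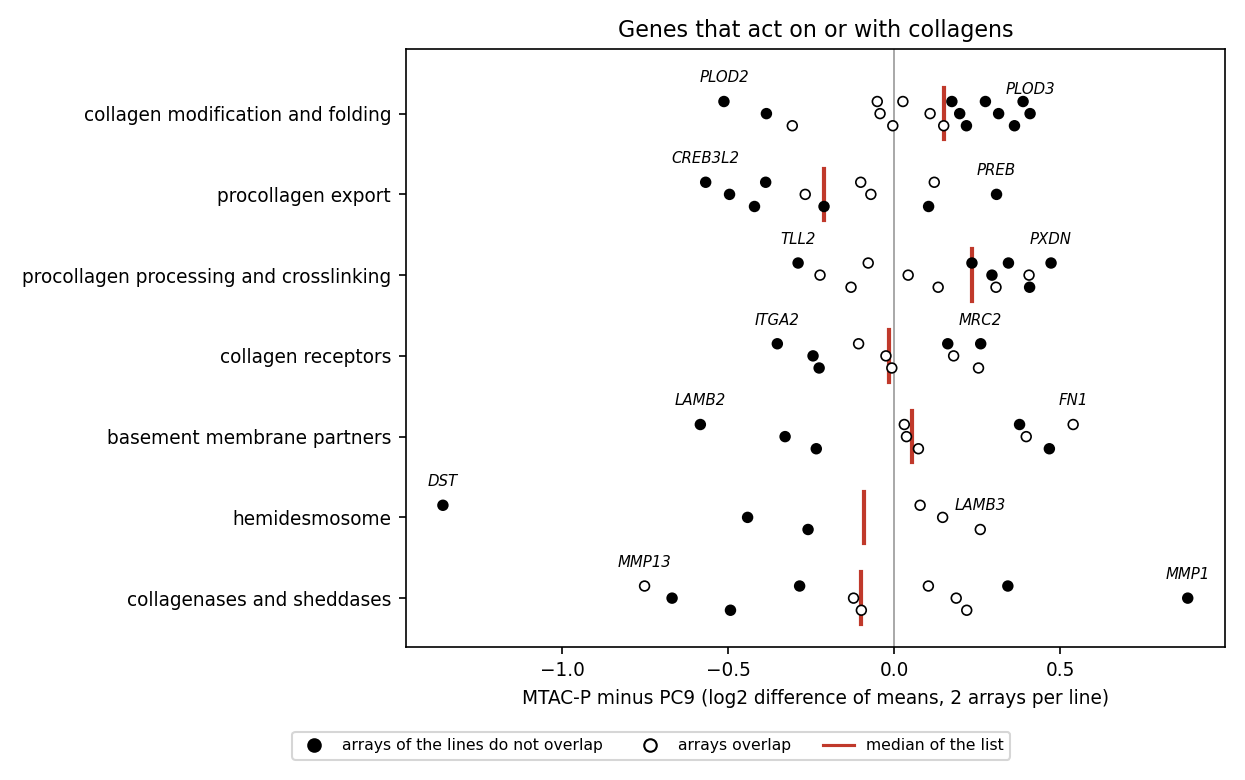
Log2 difference of MTAC-P minus PC9 (horizontal axis, means of 2 arrays per line) for the 78 tested genes of the 7 lists. Filled points have non-overlapping arrays, red bars are list medians, and the highest and lowest gene of each list is named. Medians run from -0.21 for export to 0.23 for processing and crosslinking, and none of the 78 genes passed the test.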

How the data were processed

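Agilent Feature Extraction 10.7 is listed in the submitters' processing notes, although the probe-set names are of Affymetrix type. The authors deposited log2 expression values for 49386 probe sets. That the scale is log2 was read from the range of the values, and background correction, normalization and summarization are not given in the sources used here. Of the probe sets, 45253 had 1 symbol in GEO's platform annotation, updated by gene identifier to RefSeq (GRCh38.p14), 1327 had several and 2713 none, and 93 were controls. Each of 18239 genes was represented by its brightest probe set. The 3269 genes below the 25th percentile of probe-set means were left out.

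The lines were compared over 14970 genes with R 4.3.3 and the limma 3.58.1 functions lmFit and eBayes (2-sided, Benjamini-Hochberg over all tested genes). The fit was also run on simulated data drawn from limma's own fitted prior with independent arrays. Such data cannot show how the fit behaves where arrays correlate. The number of arrays limits the precision. The members and lists were chosen with earlier results of these data known. The naming rule was the highest and lowest gene of each list plus a fixed set, and CD68, COL9A3, COL16A1, COL9A1, TYSND1, DCN and LUM were named after their values were seen. Figures used Python 3.11.15 and matplotlib 3.10.9. The alternatives were 13 settings of normalization, filtering, probe sets, prior, pseudocount, block and arrays left out.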

Additional observations from a re-analysis of the deposited data

How the results depend on the processing

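The count of genes past limma's adjusted p threshold, 3 with the settings used, was 1 with a filter at the 50th percentile, 0 with the mean of all probe sets, 77 with a variance trend, 1 with a pseudocount of 16 on the linear scale, and 0 to 68 when 1 array was left out, with 68 without PC9 replicate 1 and 0 without either MTAC-P replicate. It was 2079 of the 14970 tested genes with the replicate number as a block. There 3 of the 21 other chains and 6 of the 78 pathway genes passed (CREB3L2, LAMB2, DST, MMP1, MMP13 and ADAM10). Deviations of same-numbered arrays correlated at 0.28 over genes, but nothing in the labels pairs the samples and there are 2 numbers only, so the block was not used. In the other settings that kept all 4 arrays, no pathway gene passed and no chain outside the 10 genes did. The COL13A1 difference of 2.37 was 1.60 with the mean of all probe sets and 1.68 to 3.07 with 1 array left out. Collagen genes higher in MTAC-P numbered 7 to 9 over all settings. Those with non-overlapping arrays numbered 6 to 8 in the settings that kept all 4 arrays. With 1 array left out a gap between the lines is easier to reach, so those counts are not given. The 50th percentile filter left out COL6A2, and both counts were 7 there. The shares over all tested genes given above hold for the main settings only. Of the other collagen chains, 12 were higher, and 8 to 13 with 1 array left out. With no filter 18 were higher. With the 50th percentile filter, which leaves out the chains near the dim level, it was 1 of 6. The sign of COL6A2 turned when its probe sets were averaged and that of COL7A1 with 1 array left out. Of the 49 other tested genes that the naming rule gave, 18 changed sign under some setting. CD14, CD3E, CLDN5, COL11A2, COL27A1 and PECAM1 are among the 49 but are not described above. With 2 arrays per line and no detection calls, differences near background are poorly resolved.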

Other observations

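Replicate 2 was above replicate 1 for 8 of the 9 collagen genes in MTAC-P and for 6 of 9 in PC9, with median gaps of 0.34 and 0.32. Over all tested genes the shares were 52.8% in MTAC-P and 49.6% in PC9, with a median gap of 0.02 in MTAC-P and -0.0026 in PC9. COL16A1, a fibril-associated chain gene, read 5.01 and 6.54 in MTAC-P and 5.39 and 5.72 in PC9, so its MTAC-P duplicates lay on both sides of PC9. COL9A1, a chain of cartilage fibrils, read 4.33 and 4.72 in MTAC-P and 4.10 and 4.16 in PC9 (difference 0.39, limma adjusted p = 0.315). The mean of the COL9A1 probe sets differed by 0.0033. Its PC9 mean was just below the dim level, so the gene was kept only through its MTAC-P values.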
